A study of Nothobranchius furzeri with 2 samples.

Results

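The genes of muscle glycolysis and of glycogen breakdown were followed in the skeletal muscle of the African turquoise killifish, Nothobranchius furzeri (GRZ strain). They were chosen by symbol: GAPDH, ALDOA, ENO3, PGAM2, PKM, PGK1, TPI1, LDHA, PYGM and PFKM, together with annotated copies whose symbol adds 1 or 2 letters. The rule found 17 of the 18529 annotated lines of the count table. Fish had been injected at the one-cell stage with a morpholino (MO) against dnd, a gene that primordial germ cells need to migrate and survive, or with a standard control MO. The first are called germ cell-removed (GR) and the second control. All groups received an injection. The authors scored germ cell loss by fluorescence in embryos of a vasa:EGFP reporter line and, in wild-type fish, by the shape of the adult gonad. It was not scored in the tissues measured here. The 8 muscle groups were GR and control fish, male and female, old (3 months) and young (1.5 months). GR and control female livers of both ages served as the tissue to compare with. Each group had 5 individuals and 1 library per individual, giving 40 muscle and 20 liver libraries.

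Glycogen phosphorylase releases glucose units from glycogen, the sugar store of the muscle fibre, and phosphofructokinase commits the sugar to glycolysis. Aldolase then splits it into triose phosphates, which triosephosphate isomerase converts into each other. They pass through glyceraldehyde-3-phosphate dehydrogenase, phosphoglycerate kinase, phosphoglycerate mutase, enolase and pyruvate kinase to pyruvate, with a net gain of ATP. Lactate dehydrogenase turns pyruvate into lactate and restores the NAD that glycolysis consumes. In vertebrates, fast muscle fibres are rich in these enzymes and use muscle forms of several of them, whereas liver uses other forms, such as the phosphorylase PYGL, and also makes glucose.

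Expression was measured by BRB-seq, a barcoded bulk method that reads the 3′ ends of transcripts. Muscle libraries held 80573–221897 counts, GR female livers 163968–256671 and control female livers 28062–180764. Muscle was recognizable as such: MYLPFA, a fast myosin light chain, had 6214–20425 counts in every muscle library, whereas MYLPFA, CKMB, ACTC1B and TNNT3A each had 0–14 counts in every liver library. VASA, a germ cell marker, reached at most 1 count in muscle and 2 counts in liver, so these tissues give no check of germ cell loss. Unless said otherwise, levels are CPM, counts relative to the library total with TMM factors estimated within a tissue. Changes are log2 fold changes from the quasi-likelihood test of edgeR, with p-values adjusted after Benjamini and Hochberg over all genes tested. A gene is said to have risen, fallen or been called where the adjusted p was under 0.05. The 5 libraries of a group came from separate fish.

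Of the 17 genes, 13 passed the filter of 10 counts in the muscle comparisons. Together the 17 took 3.28–8.56% of the counts of a muscle library (median 4.98%), against 0.542–1.01% in GR female liver (median 0.711%) and 0.110–0.241% in control female liver (median 0.184%). ALDOAA, the muscle-type aldolase, gave 44.6% of their muscle counts and GAPDH 25.3%. ENO3, the muscle enolase, gave 12.9% and PKMB, a pyruvate kinase, 12.3%. The remaining genes were far smaller: PFKMB and PFKMA (phosphofructokinase) gave 1.62% and 1.09%, TPI1B (triosephosphate isomerase) 0.973%, PGK1 (phosphoglycerate kinase) 0.714% and PGAM2 (phosphoglycerate mutase) 0.335%. These are counts of 3′ ends, and how evenly the ends of different genes were read was not tested. Their order between genes is therefore not taken as an order of transcript levels. In female liver the make-up was different, with 63.6% of the counts on GAPDH and 30.6% on ENO3.

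Only 1 copy of most enzymes was read in muscle. TPI1A had 0 counts over the 40 muscle libraries and GAPDH (2 OF 2) had 1, although both copies are annotated near each other (sgr19:19146137-19156796 and sgr19:19364248-19371037 in the GRZ assembly). The expressed TPI1B (sgr05:61393914-61396285) and GAPDH (sgr05:61063474-61068299) likewise lie on 1 chromosome, 326 kb apart. PKMA had 3 counts against 44421 for PKMB, whose gene is at sgr13:17643742-17649113. The glycogen phosphorylase genes PYGMB and PYGMA had 421 and 139 counts, and a second line named PYGMB, 576 bases long and 18 kb away on sgr10, had 1. LDHA had 67 counts over 27 of the 40 libraries, and GAPDHS, named for a spermatogenic form, had 258. Among the 17 genes, phosphofructokinase had 2 well-read copies, PFKMB (5833 counts, sgr09:40488635-40503275) and PFKMA (3929 counts, sgr15:18945233-18954951). Where copies are alike, reads could be assigned to either, and this was not tested.

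**Figure D1:**
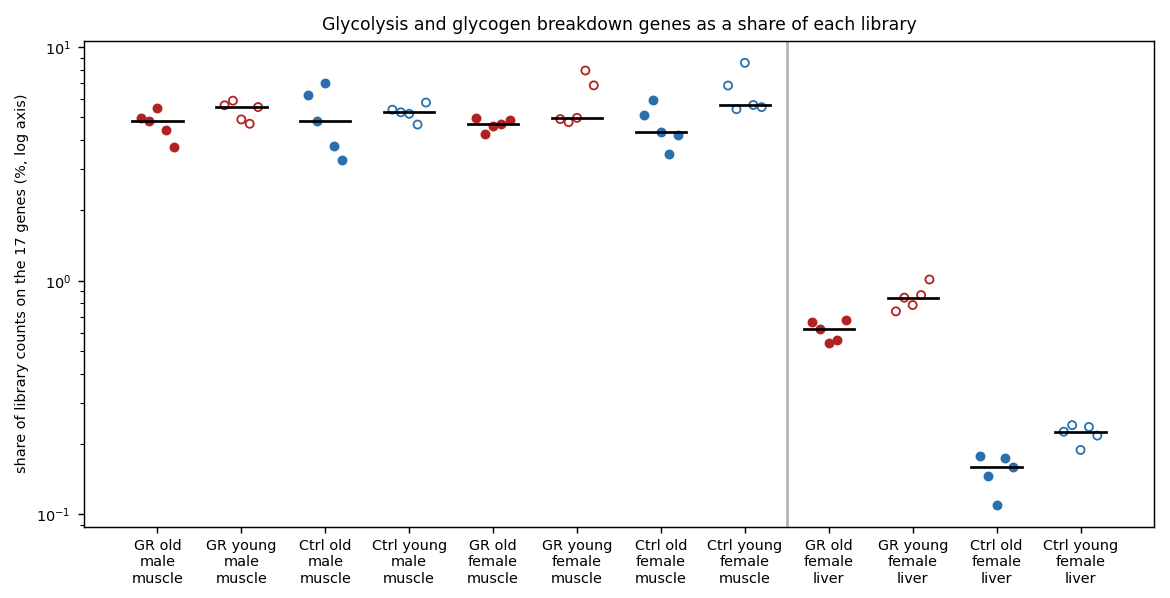
Share of each library's counts that fell on the 17 genes, in percent on a log axis, for the 8 muscle and 4 female liver groups. Points are single libraries (5 per group) and black bars are group medians. All muscle libraries lie at 3.28–8.56%, above all livers, and GR livers (0.542–1.01%) lie above control livers (0.110–0.241%).

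Most of the genes were higher in muscle than in liver. In the 4 groups of females (young GR, young control, old GR, old control), 12 of 13, 13 of 13, 10 of 11 and 12 of 12 genes tested were higher in muscle, against 15.7%, 23.8%, 21.5% and 33.2% of all genes tested. Calls in either direction made up 41.5%, 44.9%, 46.6% and 48% of all genes. The tallies carry little weight, because the members were picked partly as muscle forms and several passed the filter through muscle counts alone. In young control females PGAM2, PKMB, LDHA, PYGMA, PFKMB and PFKMA had 0 liver counts, so they could only come out higher in muscle. PKMB had 0 counts in the 20 livers and was at least 1564-fold, 846-fold, 2669-fold and 735-fold higher in muscle, where the floor is 3 counts over the liver group. These ratios and those below are of counts over summed library totals, without TMM factors. ALDOAA had 14 counts over all 20 livers. Its ratio was 6678 in young GR females on 4 liver counts (95% counting interval 2608–24512), 5084 in young control females on 3 (1739–24655), 3024 in old GR females on 7 (1467–7522) and at least 2291 in old control females on 0. PGAM2 was at least 85.1-fold, 50.9-fold, 44.7-fold and 12.8-fold higher in muscle. PYGMA, read at a few counts per library even in muscle, was at least 10.0-fold, 7.82-fold, 3.01-fold and 1.82-fold higher.

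GAPDH, ENO3, PGK1, TPI1B and PYGMB, read in most livers, differed less than ALDOAA and PKMB. In the same 4 groups, pooled CPM of GAPDH was 2.97, 12.8, 3.01 and 11.4 times as high in muscle as in liver, and for ENO3 the ratios were 2.93, 13.9, 2.61 and 11.3. For PGK1 they were 2.05, 7.81, 2.67 and 8.40, and for TPI1B 3.12, 13.3, 3.42 and 6.62. PYGMB had the ratios 1.87, 3.36, 1.51 and 2.15. In each of these 5 genes the ratio was smaller in GR than in control females. Genes in general leaned the same way. Over all genes tested, with TMM factors, the median log2 fold change of muscle over liver was −0.45, 0.25, −0.13 and 0.85 in the same 4 groups. Whether the 5 genes went beyond this shift was not tested here. Tissue and sequencing pool coincided in these libraries and cannot be told apart. GAPDHS in both control groups, PYGMB and LDHA kept their tissue call only under some settings.

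Germ cell removal was the treatment under study. In muscle none of the genes was called: 0 of 13 in old males, young males, old females and young females, against 0%, 0%, 0.165% and 0.0639% of all genes. DESeq2 also called 0 of the 13 in each. With every gene of at least 1 count kept, 1 gene was called lower in young females. At an unadjusted p under 0.05 there was 1 gene in old males (PYGMA), 1 in young males (PYGMB), 1 in old females (PFKMA) and 2 in young females (PFKMB and ENO3), while over all genes there were 236, 273, 415 and 391. Their median log2 fold change was 0.07, 0.13, −0.08 and −0.07, and that of all genes 0.00, 0.06, −0.02 and −0.08. Since these are bulk samples, fewer cells of a type and less RNA per cell cannot be told apart.

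The precision behind these values differed by gene. For GAPDH, which carries the oxidation step of glycolysis, the 95% intervals of the log2 fold change of GR over control were −0.52 to 0.65 in old males, −0.12 to 0.30 in young males, −0.44 to 0.36 in old females and −0.48 to 0.34 in young females. For ALDOAA they were −0.53 to 0.68, −0.06 to 0.33, −0.53 to 0.25 and −0.41 to 0.28 in the same order. A change of 1 log2 unit in either of the most-read genes lay outside all of these intervals. Changes within them remain compatible with the data of 5 fish per group at this depth, and no detection limit was computed.

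Among single genes, PYGMB, a muscle glycogen phosphorylase, had 89.7, 101, 117, 95.2 and 82.3 CPM in the muscle of young GR males, against 48.2, 59.1, 74.2, 61.5 and 49.1 CPM in young control males. All GR libraries were above all control libraries, which 0.408% of all genes showed. The log2 fold change was 0.75 (95% interval 0.19 to 1.31), with an adjusted p of 0.732 in edgeR. PFKMB had 590.1, 497, 561, 968 and 869 CPM in young GR females, against 1652, 916, 1794, 755 and 948 CPM in young control females. The groups overlapped, with the 2 highest values in control replicates 1 and 3, and the log2 fold change was −0.77 (−1.32 to −0.22; adjusted p = 0.562 in edgeR).

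In old females PFKMA had 645, 387, 877, 886 and 737 CPM in GR fish, against 551, 569, 335, 523 and 405 CPM in control fish. GR replicate 2 fell among the control values while the other 4 lay above them, and the log2 fold change was 0.57 (0.11 to 1.03; adjusted p = 0.605 in edgeR). In other muscle genes of glucose use, no gene of the lists for other glycolytic enzymes (10–12 tested), glycogen synthesis and breakdown (16–20), control of glycolysis and pyruvate use (11–13) or transport and shuttles (8–9) was called for germ cell removal in any of the 4 groups.

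**Figure D2:**
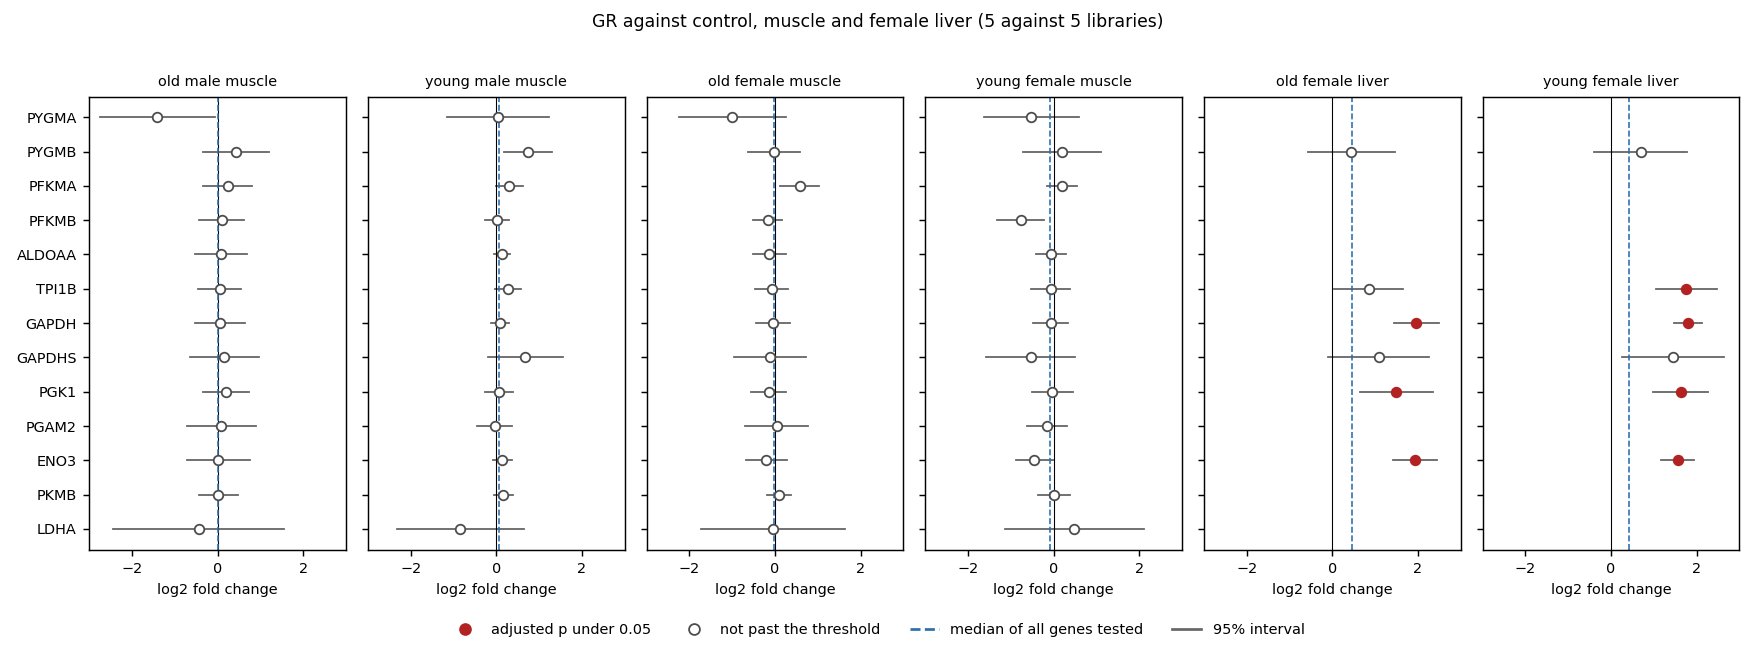
Log2 fold change of GR over control with 95% intervals in 4 muscle and 2 female liver comparisons (5 libraries per group). Red marks an adjusted p under 0.05 and the dashed line is the median of all genes. None of the 13 genes tested in muscle is red, whereas 4 of 6 are red in young liver and 3 of 6 in old liver.

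Some of these genes rose in the liver of GR females. Of the 6 that reached 10 counts in liver, 4 were higher in young GR livers, where 9.58% of all genes were called and 7.8% were higher. GAPDH had 5115, 5500.3, 5582, 5763 and 6294 CPM in young GR livers, against 1468, 2049, 1241, 2088 and 1787 CPM in young control livers. The groups were far apart, with a log2 fold change of 1.79 (SE 0.16, adjusted p = 1.22e-10 in edgeR). ENO3 had 1888, 2386, 2185, 2249 and 2897 CPM in young GR livers, against 439, 1058, 806, 1005 and 812 CPM in young control livers (1.56, SE 0.19, adjusted p = 8.84e-08 in edgeR). It did not overlap between the groups either.

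PGK1, the first enzyme of the pathway to make ATP, had 213, 186, 151, 152 and 247 CPM in young GR livers, against 19.1, 108, 64.5, 61.9 and 32.5 CPM in young control livers (log2 fold change 1.63, SE 0.32, adjusted p = 0.0004 in edgeR). The PGK1 call was lost after thinning to the smallest library (1.31, adjusted p = 0.0567). TPI1B had 167, 160.2, 168, 182 and 241 CPM in young GR livers, against 76.3, 58.3, 0, 101 and 16.2 CPM in young control livers (1.76, SE 0.35, adjusted p = 0.000525 in edgeR). Both were above every control liver, as were 7.05% of all genes. GAPDHS (1.45, adjusted p = 0.131) and PYGMB (0.70, adjusted p = 0.487) were not called by edgeR. The median was 1.59 over the 6 genes and 0.43 over all genes.

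In old livers, 3 of the 6 genes were higher in GR females, where 8.9% of all genes were called and 6.94% were higher. GAPDH had 3889, 3585, 2852, 2704 and 4127 CPM in old GR livers, against 933, 435, 591, 967 and 1064 CPM in old control livers (log2 fold change 1.96, SE 0.26). ENO3 had 2402, 2002, 1746, 1867 and 1953 CPM in old GR livers, against 483, 461, 286, 587 and 544 CPM in old control livers (1.94, SE 0.26). Both had an adjusted p of 1.4e-08 in edgeR and, like 10.5% of all genes, lay above the control livers without overlap. PGK1 had 123, 138, 97.2, 114 and 121 CPM in old GR livers, against 16.7, 25.6, 0, 74.4 and 37.1 CPM in old control livers. Its log2 fold change was 1.50 (SE 0.42, adjusted p = 0.0125 in edgeR), and the call was lost without old control liver replicate 1 (1.31, adjusted p = 0.0616). For TPI1B the value was 0.85 (95% interval 0.04 to 1.65, adjusted p = 0.195 in edgeR), and the median was 1.29 over the 6 genes and 0.46 over all genes.

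Liver enzymes of the pathway moved with them. Among other glycolytic genes, ENO1A, the widely expressed enolase, was higher in young GR livers (log2 fold change 2.06), as was PGM1, which links glycogen to glucose 6-phosphate (1.85). In old GR livers GPI (1 OF 2), a glucose-6-phosphate isomerase, was higher (1.75). Of the glycogen genes, 4 were higher, among them PYGL, the liver phosphorylase (2.04), and 1 lower (GYG1B, a glycogenin, −2.59) of 13 tested in young livers. In old livers 6 were higher and 1 lower of 15. Genes of glucose output were higher in 5 of 6 young and in 5 of 6 old cases, with the sixth lower in old livers. Over all genes 7.8% were higher and 9.58% called in young livers, and 6.94% and 8.9% in old livers.

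Several properties of the livers moved with the same contrast. Summed CPM of the 21 liver-cell markers was 125334–157574 in young GR livers and 37372–59195 in young control livers, and 114668–145199 in old GR livers and 26079–50303 in old control livers. Of those markers 16 rose and 1 fell in young fish, and 14 rose and 2 fell in old fish. Exocrine pancreas markers summed to 14437–62377 CPM in young GR livers against 9572–24169 CPM in young control livers (7 of 7 higher), and to 6001–20199 CPM in old GR livers against 4739–11621 CPM in old control livers (1 of 7 higher). The control livers were also shallower, and their reads had not been subsampled. Of these only depth was varied, by thinning to the smallest library, after which the PGK1 call was lost in young and in old livers. The part of the markers and of the subsampling in the result was not tested.

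Scaling changed how many liver genes rose overall. With RLE size factors the higher genes were 52.2% of the calls in young livers and 58.9% in old livers, against 81.5% and 78% with TMM, and 91.4% and 84.6% with plain library sizes. The median of all genes was 0.16 in young and 0.21 in old livers with RLE size factors, and 0.69 and 0.59 with plain library sizes.

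Muscle and liver of females differed in their response. The difference, as the muscle effect minus the liver effect, was −2.14 for GAPDH (SE 0.30, adjusted p = 4.42e-05), −2.28 for ENO3 (adjusted p = 5.36e-05), −1.90 for PGK1 (adjusted p = 0.0171) and −2.07 for TPI1B (adjusted p = 0.013) in young females by edgeR, where 0.535% of all genes were called and 0.509% were lower. In old females it was −2.47 for GAPDH (adjusted p = 0.000691), −2.63 for ENO3 (adjusted p = 0.000109) and −2.09 for PGK1 (adjusted p = 0.00994), where 2.2% of all genes were called by edgeR and 2.1% were lower. For TPI1B in old females it was −1.40 (adjusted p = 0.117). All genes had a median difference of −0.80 in young and −0.86 in old females, toward the same side. The calls of PGK1 and TPI1B in young females were lost with RLE size factors, after thinning and without control young female muscle replicate 3 or GR young female muscle replicate 2, 4 or 5. That of PGK1 was also lost without control young female muscle replicate 1. With normalization without genes over 1% of counts, 2 genes were called in young females. In old females the PGK1 call was lost with RLE size factors (−1.58, adjusted p = 0.0921), plain library sizes (−1.68, adjusted p = 0.0567) and thinning (−0.49, adjusted p = 0.9998).

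Age changed the muscle genes more than any other contrast within muscle. GAPDH, PGAM2 and TPI1B were lower in old muscle in both sexes and in both GR and control fish, and no other gene of the group was called in all 4 comparisons. In GR females 7 of the 13 genes were lower and 1 higher in old muscle, where 3.13% of all genes were lower and 2.89% higher (6.02% called). In control females 6 were lower (background 2.5% lower, 3.99% called). In GR males 4 were lower (1.51% lower, 3.35% called) and in control males 3 (1.97% lower, 4.63% called). The median log2 fold change over the 13 genes was −0.80, −0.84, −0.71 and −0.58, and over all genes 0.18, −0.00, 0.12 and 0.19.

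**Figure D3:**
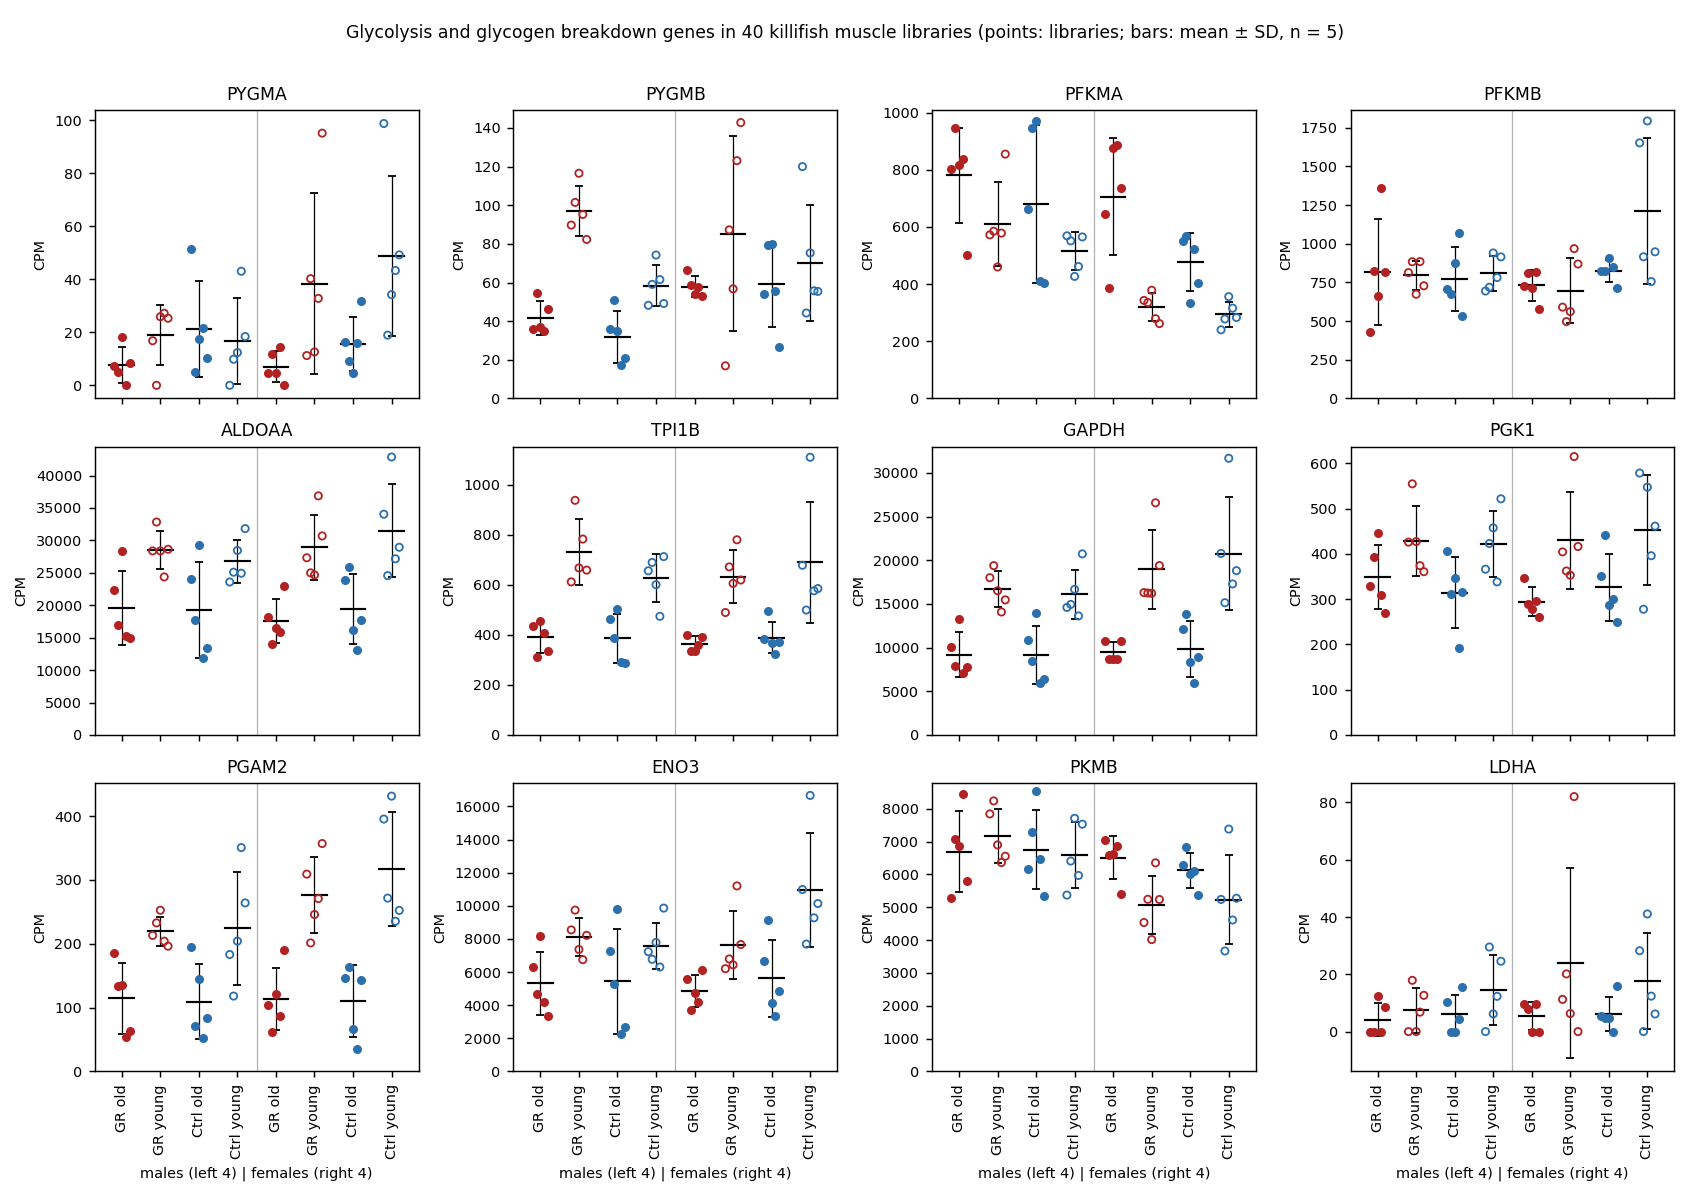
CPM of 12 of the genes in each muscle library, with males in the left 4 and females in the right 4 positions, each ordered GR old, GR young, control old and control young. Filled points are old and open points young fish, red is GR and blue is control, and bars are mean ± SD (n = 5). GAPDH lies at 5928–13928 CPM in old and 13620–31667 CPM in young muscle, while PKMB ranges over 5280–8524 CPM in old and 3669–8236 CPM in young muscle.

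At the entry from glycogen, the phosphorylase genes were lower in old muscle in some groups. PYGMA had 4.74, 11.7, 4.49, 14.4 and 0 CPM in old GR females, against 11.2, 40.3, 12.6, 32.8 and 95.2 CPM in young GR females. These values rest on few counts, 1, 3, 1, 3 and 0 in old and 2, 6, 2, 4 and 8 in young fish. The groups overlapped, and the log2 fold change was −2.19 (SE 0.59, adjusted p = 0.0159 in edgeR). In control females the change in PYGMA was −1.77 (SE 0.48, adjusted p = 0.044 in edgeR), and this call was lost in 8 of 10 fits that left out 1 library. PYGMB had 35.8, 54.7, 36.8, 34.8 and 46.3 CPM in old GR males, against 89.7, 101, 117, 95.2 and 82.3 CPM in young GR males. No old male reached the lowest young one, and the log2 fold change was −1.32 (SE 0.29, adjusted p = 0.0088 in edgeR). In control males the change was not called (adjusted p = 0.113).

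Of the 2 phosphofructokinase copies, PFKMA went the other way. It had 645, 387, 877, 886 and 737 CPM in old GR females, against 343, 336, 378, 279 and 262 CPM in young GR females. Every old library was above every young one, as were 4.38% of all genes, and the log2 fold change was 0.97 (SE 0.21, adjusted p = 0.00238 in edgeR). In control females the value was 0.55 (95% interval 0.13 to 0.97, adjusted p = 0.134), with 551, 569, 335, 523 and 405 CPM in old and 240.0, 278, 356, 316 and 283 CPM in young fish. PFKMB was not called in any of the 4 age comparisons, with −0.70 in control females (adjusted p = 0.0699 in edgeR).

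Aldolase and triosephosphate isomerase were lower in old females. ALDOAA had 18258, 14055, 16460.4, 15948 and 22932 CPM in old GR females, against 27323, 24995, 24678, 36866 and 30689 CPM in young GR females. The groups did not overlap, and the log2 fold change was −0.86 (SE 0.17, adjusted p = 0.000462 in edgeR). In control females it was −0.84 (SE 0.19, adjusted p = 0.0146), with overlap. In males ALDOAA was not called, at −0.65 in GR (adjusted p = 0.0843) and −0.58 in control fish (adjusted p = 0.114 in edgeR).

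TPI1B was lower in all 4 groups. It had 398, 336, 337, 359 and 392 CPM in old GR females, against 489, 671, 605, 779 and 619 CPM in young GR females. In control females it had 383, 494, 368, 325 and 373 CPM in old and 678, 499, 1109, 576 and 585 CPM in young fish. Neither pair of groups overlapped, although old control replicate 2 and young control replicate 2 came within 5 CPM of each other. With age TPI1B changed on the log2 scale by −0.94 (SE 0.19, adjusted p = 0.000782) in GR females and −0.97 (SE 0.21, adjusted p = 0.0126) in control females by edgeR.

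In males TPI1B had 437, 313, 453, 408 and 336 CPM in old GR fish, against 611, 937, 667, 782 and 658 CPM in young GR fish. Old control males had 463, 389, 503, 292 and 285 CPM, against 656, 689, 600.0, 474 and 712 CPM in young control males. The GR groups were apart, whereas among control males old replicate 3 exceeded young replicate 4. Its log2 fold change was −1.04 (SE 0.20, adjusted p = 0.00492) in GR males and −0.80 (SE 0.21, adjusted p = 0.0204) in control males by edgeR.

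GAPDH, the step after the triose phosphates, was also lower in all 4 groups. It had 10773, 8695, 8689, 8688 and 10734 CPM in old GR females, against 16292, 16242, 16213, 26568 and 19384 CPM in young GR females. Old control females had 12151, 13864, 8326, 5928 and 8943 CPM, against 20776, 15136, 31667, 17284 and 18801 CPM in young control females. In both pairs all old libraries were below all young ones, which 1.86% and 2.09% of all genes showed. This gave log2 fold changes of −1.14 (SE 0.17, adjusted p = 7.37e-06) in GR females and −1.22 (SE 0.22, adjusted p = 0.00319) in control females by edgeR.

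Old GR males had 10023, 7851, 13280.1, 7068 and 7735 CPM of GAPDH, against 17998, 19378, 16506, 14075 and 15459 CPM in young GR males. Old control males had 10888, 8418, 13928, 5990.2 and 6352 CPM, against 14596, 14940.5, 16665, 13619.9 and 20724 CPM in young control males. In GR males the groups were apart, as for 1.45% of all genes below. In control males old replicate 3 exceeded young replicate 4, and none of the 13 genes was apart (1.41% of all genes were below). In males GAPDH changed on the log2 scale by −0.96 (SE 0.20, adjusted p = 0.00678) in GR males and −0.92 (SE 0.21, adjusted p = 0.00591) in control males by edgeR.

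PGK1, the next enzyme, was called in GR females only by a small margin. It had 346, 289, 279, 297 and 259.9 CPM in old and 405, 362, 353, 615 and 416 CPM in young GR females, without overlap. The log2 fold change was −0.69 (SE 0.20, adjusted p = 0.0302 in edgeR), and the call was lost in 6 of 10 fits that left out 1 library (GR young female replicate 1 or 4, GR old female replicate 2, 3, 4 or 5). In control females it was −0.62 (adjusted p = 0.134).

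PGAM2, the muscle phosphoglycerate mutase, had the lowest old-to-young ratio among the genes called in all 4 groups. It had 104, 62.5, 121, 86.2 and 191 CPM in old GR females, against 309, 201, 246, 271 and 357 CPM in young GR females. Old control females had 146, 163, 66.0, 35.7 and 144 CPM, against 395, 272, 431, 235 and 252 CPM in young control females. Both pairs were apart, with log2 fold changes of −1.44 (SE 0.25, adjusted p = 0.000127) in GR females and −1.67 (SE 0.32, adjusted p = 0.0044) in control females by edgeR.

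Old GR males had 186, 134, 135, 54.8 and 63.1 CPM of PGAM2, against 213, 233, 253, 204 and 196 CPM in young GR males. Old control males had 195, 71.6, 144, 52.3 and 83.0 CPM, against 183, 118, 204, 351 and 264 CPM in young control males. The control groups overlapped and the GR groups did not, by a small gap. On the log2 scale PGAM2 changed by −1.11 (SE 0.29, adjusted p = 0.0328) in GR males and −1.19 (SE 0.31, adjusted p = 0.0173) in control males by edgeR. In GR males the call was lost in 7 of 10 fits that left out 1 library (young replicates 1–5, old replicates 4 and 5; adjusted p 0.0737–0.133), and in control males without young replicate 4 or 5 or old replicate 2.

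ENO3 was lower in old females. It had 5579, 3705, 4733, 4167 and 6104 CPM in old GR females, against 6204, 6792, 6436, 11200.1 and 7663 CPM in young GR females. Old control females had 6688, 9139, 4118, 3329 and 4831 CPM, against 10984, 7691, 16662, 9273 and 10136 CPM in young control females. The GR groups were apart, and old control replicate 2 overlapped the young control range. The log2 fold change was −0.80 (SE 0.18, adjusted p = 0.00309) in GR females and −1.1 (SE 0.25, adjusted p = 0.0135) in control females by edgeR. In males it was −0.71 in GR (adjusted p = 0.0797) and −0.58 in control fish (adjusted p = 0.231).

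PKMB, the last step to pyruvate, was not called with age. It had 7059, 6583, 6626, 6863 and 5388 CPM in old GR females, against 4535, 5242, 4015, 6351 and 5236 CPM in young GR females. The 95% intervals of its log2 fold change were −0.11 to 0.54 in GR females, −0.27 to 0.42 in control females, −0.58 to 0.10 in GR males and −0.45 to 0.29 in control males. In females these intervals lie above the values fitted for GAPDH, ALDOAA, ENO3, PGAM2 and TPI1B in the same libraries. LDHA, read at 0 to 82.1 CPM, had −2.09 in GR females (adjusted p = 0.0771 in edgeR).

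**Figure D4:**
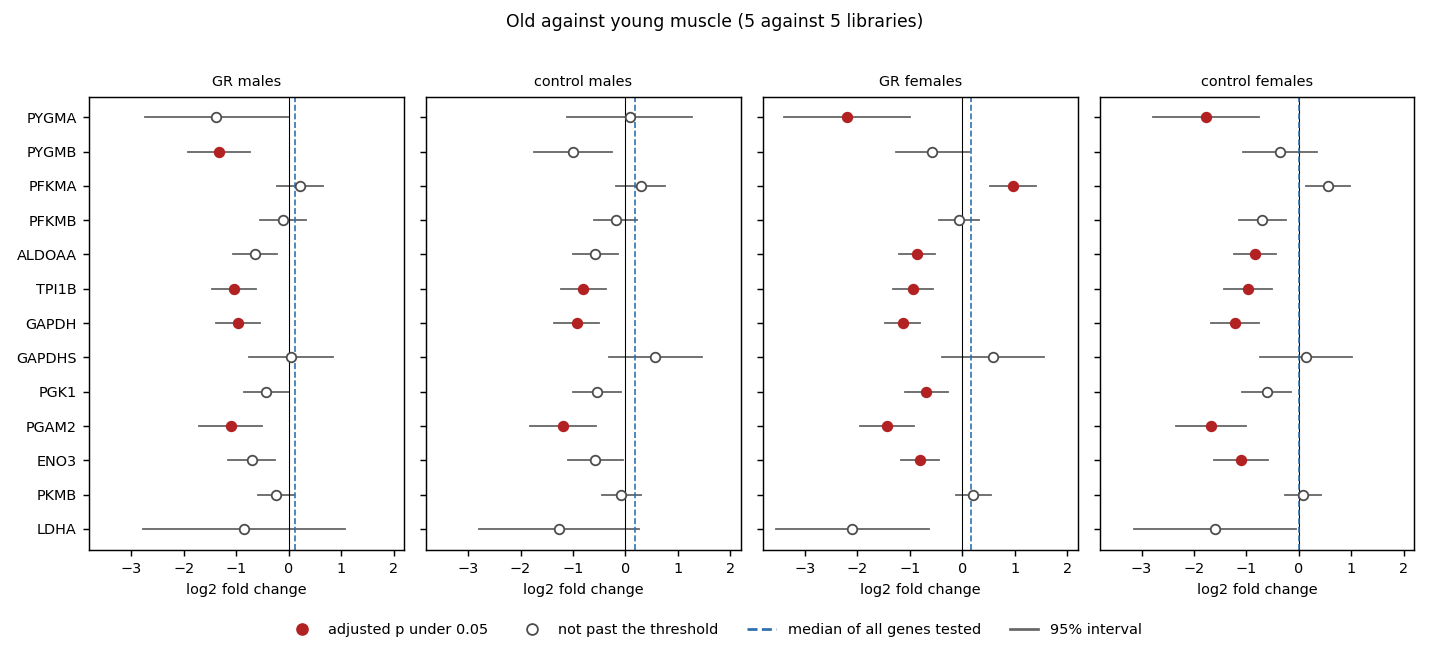
Log2 fold change of old over young muscle with 95% intervals for 13 genes in GR males, control males, GR females and control females (5 libraries per group). Red marks an adjusted p under 0.05 and the blue dashed line is the median of all genes. GAPDH, PGAM2 and TPI1B are red and negative in all 4 panels, and PFKMA is red and positive in GR females.

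The age calls in control females depended in part on 1 fish. Without control young female replicate 3, which had the highest GAPDH, ALDOAA, ENO3 and TPI1B values, 2 of the 6 calls remained, and ALDOAA was at −0.63 (adjusted p = 0.0797), ENO3 at −0.83 (0.0752 adjusted), TPI1B at −0.66 (0.0596 adjusted) and PYGMA at −1.79 (0.0693 adjusted) by edgeR. The direction stayed the same in each, and PYGMA hardly moved from its −1.77 with all fish. The ALDOAA call was also lost without young replicate 1 or old replicate 5, and the ENO3 call without old replicate 5. In control males the TPI1B call was lost without young replicate 2 or 5. In GR females the PYGMA call was lost without young replicate 2 or 5 or old replicate 1.

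Scaling set the zero point of the age contrast. With plain library sizes in place of TMM, the median of all genes was 0.64 in GR females, 0.39 in control females, 0.64 in GR males and 0.74 in control males. The higher genes then made up 89.5%, 82.3%, 94.7% and 96.1% of all calls, against 48%, 37.5%, 54.9% and 57.5% with TMM. GAPDH, PGAM2 and TPI1B kept a negative sign under each scaling in all 4 groups, as did ALDOAA, ENO3 and LDHA. With plain library sizes TPI1B was not called in any of the 4 groups.

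The calls themselves did change with plain library sizes. In GR females 3 genes were lower (GAPDH −0.69, PGAM2 −0.98, ALDOAA −0.42) and 2 higher (PFKMA 1.46, PKMB 0.69). In control females 3 were lower (GAPDH −0.82, PGAM2 −1.29, ENO3 −0.71) and 2 higher (PFKMA 0.94, PKMB 0.50). In GR males GAPDH was lower (−0.49) and PFKMA higher (0.74), and in control males no gene was lower and 2 were higher. As a share of all counts, the 17 genes took 3.28–7.01% in old muscle (median 4.76%) and 4.66–8.56% in young muscle (median 5.48%). Signs of genes that were not called flipped between scalings for PYGMB in control females, PFKMB in GR females, and PGK1, PKMB and PFKMB in both male groups.

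Other enzymes of the pathway were followed by lists of named genes. Of the other glycolytic genes, the same 3 were lower with age in GR females, control females, GR males and control males, of 11, 11, 10 and 11 tested. PGM1 was at −0.89, −1.04, −0.99 and −0.93, GPI (2 OF 3), a glucose-6-phosphate isomerase, at −0.78, −1.06, −0.92 and −0.83, and ENO1A at −0.79, −0.67, −0.92 and −0.96. The median of this list was 0.01, −0.28, −0.62 and −0.46. No gene of the list for control of glycolysis and pyruvate use was called in any of the 4 groups (12 or 13 tested).

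Glycogen genes moved in both directions, in females. In old GR females GYG2 (a glycogenin, 1.42, adjusted p = 0.00481), PHKG1 (a subunit of phosphorylase kinase, 0.76, adjusted p = 0.0182) and PPP1R3AA (a glycogen-targeting subunit of protein phosphatase 1, 0.89, adjusted p = 0.0238) rose and GYG1B (−1.29, adjusted p = 0.00315) fell, of 18 tested by edgeR. In old control females PHKG1 rose (0.93, adjusted p = 0.0231) and STBD1, a glycogen-binding protein (−2.92, adjusted p = 0.0061), and PPP1R3A (−0.92, adjusted p = 0.0367) fell, of 19 tested by edgeR. In males 0 of 19 and 0 of 17 were called. The medians were 0.37, −0.04, 0.11 and 0.27 in GR females, control females, GR males and control males.

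Among transporters and shuttle enzymes, MDH1 (2 OF 2), a cytosolic malate dehydrogenase, was lower in old GR females (−1.14, adjusted p = 0.00099) and old GR males (−1.25, adjusted p = 0.005) by edgeR. In old GR females MDH2, its mitochondrial counterpart (0.83, adjusted p = 0.00132), and SLC2A1B, a glucose transporter (1.84, adjusted p = 0.013), were higher. In old control females GOT2, a mitochondrial transaminase of the malate-aspartate shuttle, was lower (−0.95, adjusted p = 0.00401). None of 8 was called in control males.

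**Figure D5:**
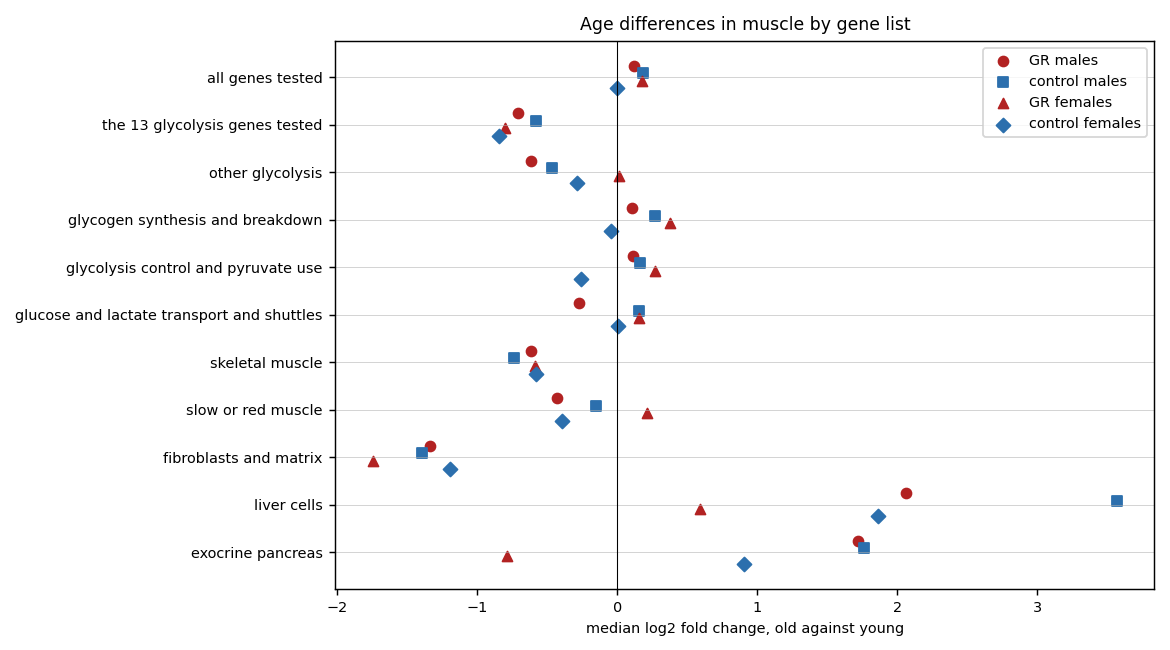
Median log2 fold change of old over young muscle for each gene list and for all genes, in GR and control fish of both sexes. The 13 glycolysis genes lie at −0.80 to −0.58, the fibroblast and matrix list at −1.75 to −1.19 and the skeletal muscle list at −0.74 to −0.58.

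Markers of muscle and of other cell types moved with age as well. Skeletal muscle markers summed to 64567–120893 CPM in old and 129958–195528 CPM in young muscle, with 7, 6, 8 and 8 of 20 lower in GR females, control females, GR males and control males. CKMB, the muscle creatine kinase, was at −1.17, −0.70, −1.23 and −1.11, and MYLPFA at −1.08, −0.92, −1.05 and −1.28. Slow-muscle markers did not fall alike. Their median sums in old and young fish were 2886 and 2200 CPM (GR females) and 1510 and 1610 CPM (control females). In males they were 3859 and 3247 CPM (GR) and 3184 and 2836 CPM (control). Of this list CASQ2 was lower in GR females (−1.28), GR males (−1.16) and control males (−1.23), and MYL2B in GR females (−1.11). Fibroblast and matrix markers summed to 657–3195 CPM in old and 3838–12420 CPM in young muscle, with 10 of 12, 9 of 11, 6 of 10 and 8 of 10 lower. Their medians were −1.75, −1.19, −1.34 and −1.39, further from 0 than those of the 13 glycolysis genes.

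Liver-cell markers were detected in every muscle library and were higher in old fish in 1 of 13, 0 of 11, 2 of 12 and 7 of 13 cases in the same order. They summed to 159–1944 CPM in old control males against 18.6–105 CPM in young control males, and to 169–2151 CPM in old GR males against 20.4–499 CPM in young GR males. In females the sums were 217–752 CPM in old and 113–452 CPM in young GR fish, and 71.3–1387 CPM in old and 30.8–360 CPM in young control fish. Exocrine pancreas markers were higher in 0, 0, 1 and 2 cases. The part of these cell-type markers in the age results was not tested.

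Sex made a difference in 1 gene, PFKMA, in young fish. It had 572, 585, 459.8, 578 and 855 CPM in young GR males, against 343, 336, 378, 279 and 262 CPM in young GR females. In young control fish it had 569, 551, 427, 461 and 565 CPM in males and 240.0, 278, 356, 316 and 283 CPM in females. In both pairs every male was above every female, as were 0.828% of all genes in GR and 1.22% in control fish. The log2 fold change was 0.91 (SE 0.17, adjusted p = 0.00365) in GR fish, where 0.828% of all genes were called and 0.448% were higher, and 0.81 (SE 0.16, adjusted p = 0.0448) in control fish, where 0.193% were called and 0.0859% were higher by edgeR.

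Both calls were sensitive to the fit. After thinning to the smallest library the values were 0.72 (adjusted p = 0.11) in GR and 0.61 (adjusted p = 0.273) in control fish, and in a fit of all 40 muscle libraries 0.92 (adjusted p = 0.11) and 0.80 (adjusted p = 0.163). In control fish the call was lost without young female replicate 1 or 5 or young male replicate 1, 2 or 5. PKMB had 7841, 8236, 6896, 6361 and 6552 CPM in young GR males, all above young GR females, with 0.49 (95% interval 0.22 to 0.75, adjusted p = 0.0628 in edgeR). Slow-muscle markers summed to 2694–3855 CPM in young GR males against 1305–2866 CPM in young GR females, and to 2474–3297 CPM in young control males against 801–2665 CPM in young control females. Among them TNNT1 (1.33, adjusted p = 0.00227) and MYL2 (1 OF 2) (0.70, adjusted p = 0.0257) were called in young GR fish. In the same comparison 3 of 12 fibroblast and matrix markers were lower in males (POSTNA, COL1A1A at −0.64 and COL1A2 at −0.57), and 1 of 9 liver-cell markers, HPX, was higher (4.36). None of these lists had a called gene in young control fish. The part of these markers in the PFKMA result was not tested.

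In old fish no gene of the group was called between the sexes. The count was 0 of 13 in GR and in control fish, against 0.0672% and 0.237% of all genes, with 0 and 2 genes at an unadjusted p under 0.05 and 0 by DESeq2. For PFKMA the log2 fold change of males over females was 0.16 (95% interval −0.34 to 0.65) in old GR fish and 0.53 (0.00 to 1.06, adjusted p = 0.701 in edgeR) in old control fish.

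Whether 1 contrast depended on another was tested for sex by germ cell removal (young, old), age by germ cell removal (females, males) and age by sex (GR, control). In these 6 tests 0 of the genes were called, as were 0% of all genes, and DESeq2 called 0 of the genes. At an unadjusted p under 0.05 there were 2, 0, 1, 0, 2 and 1 of them, and 310–483 of all genes. The age effect on GAPDH, PGAM2 and TPI1B, and the calls seen in 1 sex or 1 treatment only, were thus not shown to differ between groups. The age-by-sex difference of PFKMA in GR fish was −0.79 as male minus female effect (95% interval −1.39 to −0.19, adjusted p = 0.758 in edgeR), and the sex-by-removal difference of PFKMB in young fish was 0.85 (0.23 to 1.46, adjusted p = 0.715 in edgeR).

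Between individual fish of a group, most of the genes varied together. Over the 40 muscle libraries with the group means removed, 42 of 45 pairs among the 10 most-read genes had a positive correlation of log2 CPM, with a median r of 0.42. ALDOAA and ENO3 were the closest pair (r = 0.97), GAPDH and ALDOAA followed (0.96), and TPI1B and GAPDH had 0.80. PKMB went with PFKMB (0.69), and PGAM2 and PFKMB were the lowest pair (−0.14). Of 3974 other genes, those most like the mean profile of the 10 were GPI (2 OF 3) (r = 0.80), FBP2, the muscle fructose-bisphosphatase (0.78), PGM1 (0.75), CKMT2 (1 OF 2), a mitochondrial creatine kinase (0.74), and GOT1 (1 OF 2), a cytosolic transaminase (0.69), where the median of all was −0.07. The points share library depth and scaling, and these correlations are descriptions.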

How the data were processed

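BRB-seq libraries of 60 killifish samples (40 muscle, 20 female liver) were used. Per the labels and methods, the authors trimmed reads with Trim Galore 0.6.7, aligned them to the GRZ assembly with HISAT2 2.2.1, assigned them to genes with featureCounts 2.0.1 and then removed UMI duplicates with UMI-tools. Muscle and female liver pools were subsampled, except 4 muscle libraries and the 10 control livers. The deposited values were raw counts per gene. Treatment, age and sex of each library were read from its column name. Another 20 columns (male liver) were not used, and 1877 of 20406 lines without a gene identifier stayed out.

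Genes with at least 10 counts over the compared libraries were tested with edgeR 4.0.16 (TMM, quasi-likelihood test, Benjamini-Hochberg adjustment over all genes) in R 4.3.3, with only the compared groups in each fit. Alternatives were other scalings, DESeq2 1.42.0, other filters, thinning, a replicate block, all 40 muscle libraries in 1 fit, leaving out each library, and the legacy quasi-likelihood fit, added after seeing the data. Of 120 replicate pairs none agreed within sampling noise. Likeness used log2(CPM + 10). Genes were named as the members, the called genes of the lists and the genes most like the members. The members and lists were chosen with earlier results of these data known. Intervals of counts cover counting error only. One liver gene is not reported here.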

Additional observations from a re-analysis of the deposited data

Results flagged for a closer look

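In 3 of 89 groups of 5 libraries tested for a library far from the others, 1 library stood apart, and chance flags about 1 in 20 such groups. PKMB was low, at 5388 CPM, in GR old female muscle replicate 5. PGK1 was high, at 615 CPM, in GR young female muscle replicate 4. TPI1B was high, at 241 CPM, in GR young female liver replicate 5.

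The effect of germ cell removal differed between muscle and liver of females by the interaction test of edgeR. In young females the muscle effect minus the liver effect was −2.14 for GAPDH, −2.28 for ENO3, −1.90 for PGK1 and −2.07 for TPI1B. In old females it was −2.47 for GAPDH, −2.63 for ENO3 and −2.09 for PGK1. The PGK1 call in old females was lost with RLE size factors, plain library sizes and thinning (−0.49, adjusted p = 0.9998), and those of PGK1 and TPI1B in young females with RLE size factors and thinning. With normalization without genes over 1% of counts, 2 genes were called in young females. The median of all genes was also negative, at −0.80 in young and −0.86 in old females.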

How the results depend on the processing

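Of 586 counts of called members under alternatives, 555 stayed within 1.5 times the reported count and 31 moved. These counts disregard direction. Of 1667 fold changes of called genes, 1551 kept their call, 116 lost it and 0 changed sign. With plain library sizes the age calls were 2 higher and 3 lower in both GR and control females. In GR males they were 1 and 1, and in control males 2 and 0. With TMM they were 1 and 7 (GR females), 0 and 6 (control females), 0 and 4 (GR males) and 0 and 3 (control males). All-gene age calls with plain library sizes were 706 higher and 83 lower (GR females), 298 and 64 (control females), 576 and 32 (GR males) and 927 and 38 (control males). With TMM they were 155 and 168, 84 and 140, 96 and 79, and 138 and 102. In a fit of all 40 muscle libraries 5 age calls were made in GR females and 0 sex calls in young GR and young control fish. Thinning gave 0 sex calls in both. Sex calls in young GR fish were 2 with normalization without genes over 1%, with every gene of at least 1 count and in the legacy fit, and in young control fish 2 with DESeq2, filterByExpr and every gene of at least 1 count. That last filter also gave 1 call for germ cell removal in young female muscle. The tissue-by-removal calls in young females were 2 with RLE size factors, with normalization without genes over 1% and after thinning. Over all genes, removal calls in muscle were 3–72 in young females (3 reported), 0–6 in young males (0), 3–45 in old females (10) and 0–11 in old males (0), those in liver 268–804 (523, young) and 247–605 (496, old), and sex calls 3–53 (37, young GR), 9–104 (9, young control), 1–50 (4, old GR) and 3–69 (14, old control). The PGK1 call in old liver was lost with DESeq2 (1.28, adjusted p = 0.0515) and after thinning (1.09, adjusted p = 0.346).

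Leaving out 1 library at a time gave 7–8 age calls in GR females, 2–8 in control females, 3–6 in GR males and 1–5 in control males. It gave 1–2 sex calls in young GR and 0–2 in young control fish, 4–4 and 2–3 removal calls in young and old liver, and 2–4 and 3–3 tissue-by-removal calls in young and old females. Muscle-against-liver calls were 11–12 (young GR), 12–13 (young control), 9–10 (old GR) and 11–12 (old control), and all other counts were 0–0.

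Same-numbered libraries correlated only weakly, at −0.074 to 0.164 over 18 comparisons. Between muscle and liver of young GR females, each of the 5 muscle libraries was closest to the same-numbered liver (r 0.019 to 0.042). In old GR females 3 were. Whether muscle and liver came from the same fish was not tested, and the tissue tests treated them as unpaired. With the replicate block the age calls in GR females were 7, PGK1 being lost (−0.67, adjusted p = 0.0878), and no other count of members changed. Depth limited the genes with few counts: 4 of the 17 did not reach the test in muscle.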
